A study of Danio rerio with 23 samples.

Results

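The apolipoproteins are the protein coats of lipoprotein particles, and their transcripts were followed here in zebrafish larvae that lack 1 or both of the enzymes GLO1 and AKR1A1A. The set was defined by name: 10 apolipoprotein symbols (apoa1a, apoa1b, apoa2, apoba, apobb.1, apoc1, apoc2, apoea, apoeb and apom) were looked up among the 22856 genes of the count table. A row was found for 8 of the 10, and all 8 passed the filter on low counts in every comparison. No row was matched by name to apoa1a or apoba, and apoa1a was not analysed here. ENSDARG00000042780 carries the symbol APOB in the name table and was used in the place of apoba. It is given beside the 8 genes without being counted among them.

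The libraries came from untreated whole larvae of the Tg(fli1:EGFP) line at 96 hours post fertilization (hpf), and each was made from a clutch of 20 larvae. The 4 genotypes were DKO, which lacks both glo1 and akr1a1a (n = 6), GLO1KO, which lacks glo1 (n = 6), AKR1A1AKO, which lacks akr1a1a (n = 5), and WT (n = 6). All animals carried the fli1:EGFP transgene. The single knockouts were made with CRISPR/Cas9, and the DKO and WT lines were bred from the same cross between them. Total counts ran from 34316527 to 36804437 per library. glo1 had 2.73 to 4.16 CPM (counts scaled to a common effective library size) in DKO and 2.85 to 3.45 CPM in GLO1KO libraries, against 74.5 to 86.9 CPM in AKR1A1AKO and 73.5 to 87.1 CPM in WT libraries, so every library labelled as lacking glo1 lay below every other library. akr1a1a was not analysed here, so its labels were not checked. Because whole larvae were pooled, fewer cells of a type and less RNA per cell cannot be told apart in any of the values below.

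Lipoproteins carry triglycerides, cholesterol and phospholipids in the circulation. ApoB is the large scaffold protein of the particles that export triglyceride, apoA-I and apoA-II are the main proteins of high-density particles, apoC-II activates lipoprotein lipase, and apoE is a ligand for receptors of the LDL receptor family. In a zebrafish larva these proteins are made mainly by the liver, the intestine and the yolk syncytial layer, which packages maternal yolk lipid into lipoproteins, and apoeb is also known from macrophages and microglia. Many of the genes exist as pairs that go back to a genome duplication in fish, so reads of close paralogs may have been divided or dropped in the counting.

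Of the 8 genes, 7 had their lowest mean in GLO1KO larvae, and apoeb alone had its lowest mean in AKR1A1AKO larvae. A gene was called when its adjusted p in edgeR's quasi-likelihood test, corrected over all genes tested, was below 0.05 and its fold change above 1.5. In GLO1KO against WT larvae 7 of the 8 genes were called lower, where 24.5% of all genes tested were called (17.7% lower, 6.85% higher). In AKR1A1AKO against WT larvae 5 of 8 were called lower, where 11.5% of all genes were called (9.28% lower, 2.26% higher). In DKO against WT larvae 4 of 8 were called lower, where 25.3% of all genes were called (18.0% lower, 7.32% higher). None of the 8 was called higher with edgeR in these comparisons with WT. At an unadjusted p under 0.05, 2 of the 8 were higher in DKO and 0 in either single knockout, and limma called 1 gene higher in DKO and 0 in either single knockout, where DESeq2 called 0 in all 3 comparisons.

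Set against GLO1KO larvae, 7 of the 8 genes were called higher in DKO larvae, where 4.24% of all genes were called (2.98% higher, 1.26% lower). Against AKR1A1AKO larvae 3 of 8 were called higher in DKO, where 11.9% of all genes were called (3.77% higher, 8.11% lower). With scaling by library size alone, under which the all-gene median in DKO against WT was -0.18 on the log2 scale, the split of all calls was 681 higher and 4856 lower in DKO against WT, where the TMM scaling used throughout gave 1447 and 3560. The same scaling gave 521 and 344 in DKO against GLO1KO (584 and 246 with TMM), 426 and 2385 in DKO against AKR1A1AKO (745 and 1602) and 762 and 4431 in GLO1KO against WT larvae (1353 and 3488). The comparisons with WT share the same WT libraries, and those of DKO share the DKO libraries, so their counts are not independent of each other. The median log2 fold change over the 8 genes was -0.54 in DKO, -1.62 in GLO1KO and -0.90 in AKR1A1AKO larvae against WT, and 1.08 in DKO against GLO1KO larvae. Over all genes tested these medians lay between -0.01 and 0.01.

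**Figure D1:**
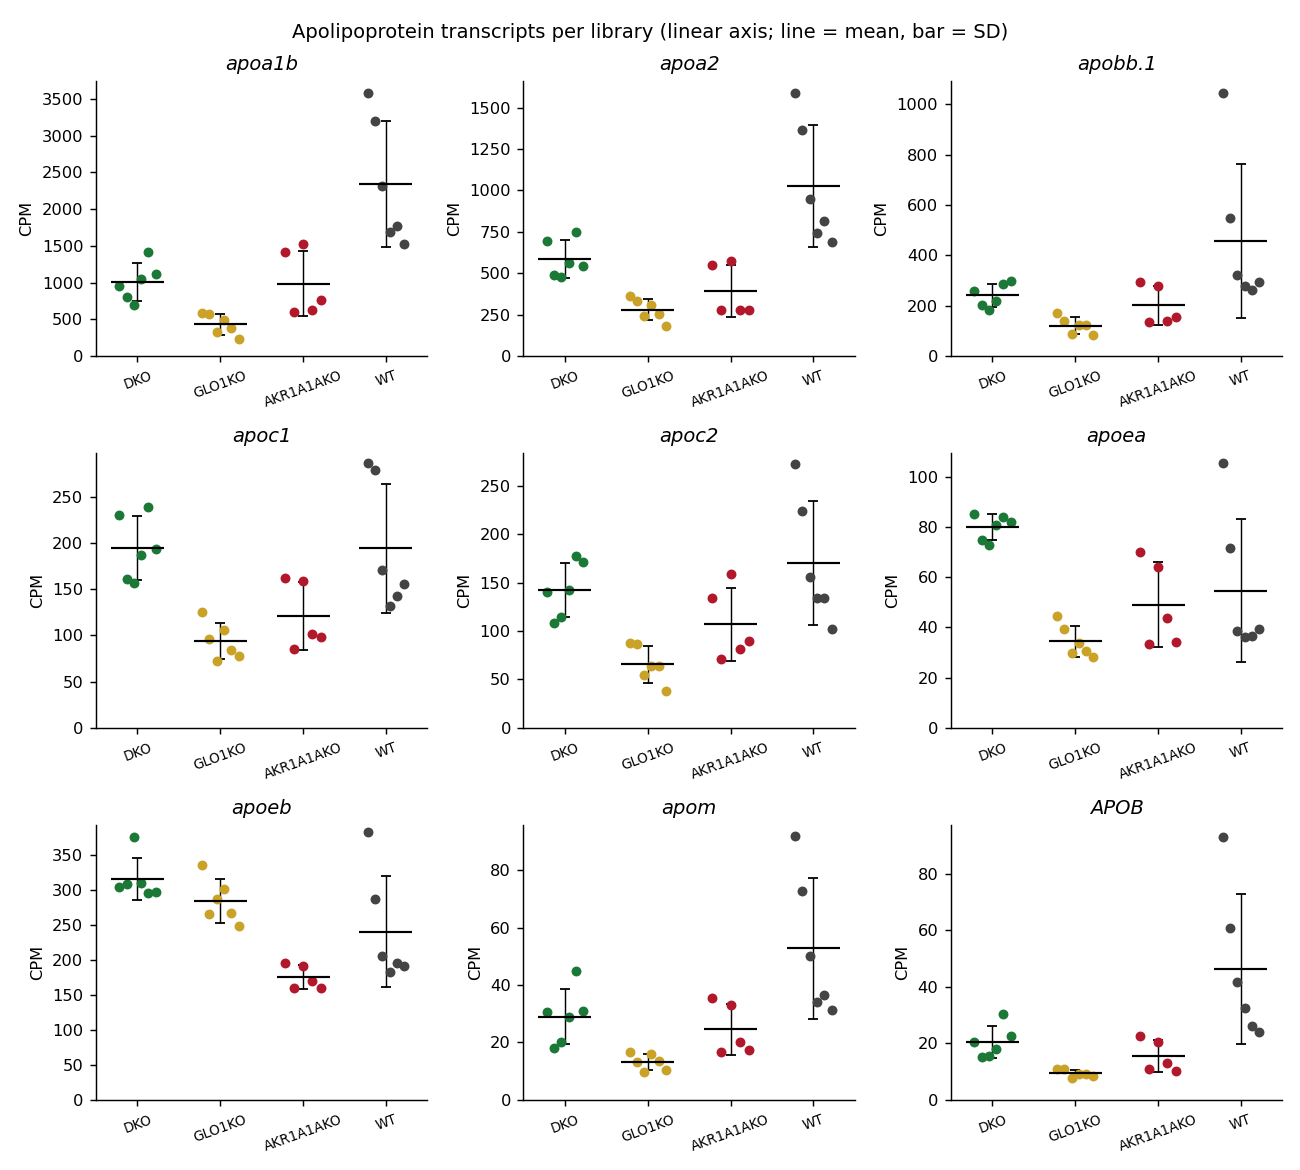
CPM (linear axes from 0) of the 8 apolipoprotein genes and of APOB in every library, by genotype, with the mean as a line and the SD as a bar (n = 6, 6, 5 and 6). The GLO1KO mean is lowest for every gene shown but apoeb, and WT 1 and WT 2, the leftmost WT points, lie above the other WT libraries of the 8 genes.

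Liver markers differed between the genotypes in the same order as most of the apolipoproteins, and their part in the results was not tested. The summed CPM of 14 hepatocyte genes ran from 539 to 1087 in DKO, 264 to 505 in GLO1KO, 385 to 899.9 in AKR1A1AKO and 992 to 2777 in WT libraries, and none of the 14 was at 0. In GLO1KO and in AKR1A1AKO larvae all 14 were called lower than in WT, and in DKO larvae 11 of 14 were, beside 17.7%, 9.28% and 18.0% of all genes. Against GLO1KO larvae 8 of 13 were called higher in DKO, beside 2.98% of all genes. Single liver genes varied: tfa (transferrin) stood at -1.76 on the log2 scale in DKO against WT larvae (standard error 0.291, adjusted p = 0.000105 in edgeR's test), whereas fabp10a, the liver fatty acid binding protein, had -0.09 (adjusted p = 0.684) and fga, a fibrinogen chain, -0.29 (adjusted p = 0.127).

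Sums and calls were also read for the other tissues. The 12 enterocyte genes summed to 452 to 722 CPM in DKO, 126 to 458 in GLO1KO, 291 to 567 in AKR1A1AKO and 496 to 1152 in WT libraries, with 1 gene at 0. In DKO against WT larvae 8 of 11 tested enterocyte genes were called lower (18.0% of all genes were), among them VIL1 at -1.12. In that comparison FABP6 was called higher at 0.83, while FABP1 (ENSDARG00000059227) had a log2 fold change of 0.11 (adjusted p = 0.651 in edgeR's test). Against WT, 9 of 11 were called lower in GLO1KO and 8 of 11 in AKR1A1AKO larvae, beside 17.7% and 9.28% of all genes. Against GLO1KO larvae 7 of 11 were called higher in DKO, beside 2.98% of all genes. The 19 macrophage and microglia genes summed to 20.9 to 27.8 CPM in DKO, 20.1 to 25.1 in GLO1KO, 20.2 to 29.7 in AKR1A1AKO and 21.9 to 43.3 in WT libraries, with 1 gene at 0. Of 13 tested, 2 were called higher and 3 lower in DKO than in WT larvae, where 7.32% and 18.0% of all genes were. Of the 13, 8 lay above 0 and the median log2 fold change was 0.20. Among the most abundant of them, csf1ra was called lower at -1.62 and MPEG1 (ENSDARG00000043093) at -0.81, and LCP1 had -0.34 (adjusted p = 0.103). The part of any of these cell types in the apolipoprotein values was not tested. The yolk list summed to 146 to 188 CPM in DKO, 72.6 to 237 in GLO1KO, 85.5 to 148 in AKR1A1AKO and 128 to 188 in WT libraries. In DKO larvae ctsl.1 and SLC40A1 made up nearly all of that sum, with means of 99.25 and 62.13 of 161.9 CPM. Only 3 of the 5 yolk genes were tested in DKO against WT larvae. There ctsl.1 was called higher at 0.59, SLC40A1 stayed below the fold threshold at -0.47 and vtg1 had 0.21 (adjusted p = 0.698 in edgeR's test).

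Among the proteins of high-density particles, apoa1b (ENSDARG00000101324) encodes apoA-I, the structural protein that accepts cholesterol from cells and activates LCAT. Its lowest, median and highest levels were 701, 1002 and 1423 CPM in DKO libraries and 229.6, 435 and 592 CPM in GLO1KO libraries. The AKR1A1AKO libraries had 604, 632, 759.8, 1417 and 1522 CPM, and the WT libraries had 1524, 2044 and 3578 CPM as lowest, median and highest. Every knockout library thus lay below every WT library, and DKO lay wholly above GLO1KO. WT had the highest mean, DKO and AKR1A1AKO overlapped in the middle, and GLO1KO had the lowest.

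On the log2 scale apoa1b stood at -1.23 in DKO (standard error 0.214, adjusted p = 0.000169 in edgeR's quasi-likelihood test), -2.44 in GLO1KO (standard error 0.259, adjusted p = 2.23e-06) and -1.25 in AKR1A1AKO larvae (standard error 0.296, adjusted p = 0.00685) against WT. In DKO against GLO1KO larvae it was 1.21 (standard error 0.201, adjusted p = 0.000755). DKO and AKR1A1AKO larvae differed by 0.02 (standard error 0.237, adjusted p = 0.948), a value whose sign turned to -0.09 with scaling by library size alone.

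apoa2 (ENSDARG00000015866) encodes apoA-II, the second protein of high-density particles. It ran from 474 to 750.3 CPM in DKO, 182 to 359.7 CPM in GLO1KO, 277 to 576 CPM in AKR1A1AKO and 689.6 to 1590 CPM in WT libraries. Its order of means was that of apoa1b, with log2 fold changes of -0.82 in DKO (adjusted p = 0.00187 in edgeR's test), -1.87 in GLO1KO and -1.39 in AKR1A1AKO larvae against WT. DKO and WT ranges overlapped, unlike those of GLO1KO and WT. Between DKO and AKR1A1AKO larvae the value of 0.58 (standard error 0.201, adjusted p = 0.032) lay just under the fold threshold, a 1.49-fold difference. It was called without AKR1A1AKO 1 or 3 or without DKO 2, 3, 4 or 6, at 0.59 to 0.75.

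apom (ENSDARG00000076838) encodes apoM, a lipocalin of high-density particles that carries sphingosine 1-phosphate in mammals. Its levels were 18.2 to 44.9 CPM in DKO, 9.65 to 16.5 CPM in GLO1KO, 16.6 to 35.5 CPM in AKR1A1AKO and 31.2 to 91.8 CPM in WT libraries. The log2 fold changes against WT were -0.88 in DKO (standard error 0.271, adjusted p = 0.0111 in edgeR's test), -1.997 in GLO1KO and -1.11 in AKR1A1AKO larvae, and apom was 2.17-fold higher in DKO than in GLO1KO larvae. Like apoa1b and apoa2, it therefore passed the test in each knockout against WT.

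The scaffold protein apoB is encoded by several zebrafish genes. apobb.1 (ENSDARG00000022767) had 185, 239.7 and 298 CPM in DKO libraries (lowest, median and highest), and 82.6, 123 and 170.3 CPM in GLO1KO libraries. AKR1A1AKO libraries had 137, 141, 154, 276 and 296 CPM, and WT libraries had 262, 307 and 1044 CPM. The WT range was set by WT 1, with 1044 CPM, and WT 2, with 549.9 CPM, while the other 4 WT libraries lay between 262 and 322 CPM and overlapped the DKO and AKR1A1AKO libraries but not the GLO1KO libraries.

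The log2 fold change of apobb.1 was -0.93 in DKO (standard error 0.299, adjusted p = 0.0139), -1.92 in GLO1KO (standard error 0.324, adjusted p = 0.000125) and -1.19 in AKR1A1AKO larvae (standard error 0.371, adjusted p = 0.0235) against WT, and 0.99 in DKO against GLO1KO larvae (adjusted p = 0.000541, all from edgeR's test). Without WT 1 the value in DKO against WT was -0.51 (adjusted p = 0.0222), below the fold threshold. In AKR1A1AKO against WT the call was lost without AKR1A1AKO 2 (-1.07, adjusted p = 0.0583), 4 (-1.09, adjusted p = 0.0625) or 5 (-1.105, adjusted p = 0.055).

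The row named APOB behaved alike, at lower counts. Its levels were 15.1 to 30.4 CPM in DKO, 7.82 to 10.96 CPM in GLO1KO, 10.3 to 22.7 CPM in AKR1A1AKO and 23.97 to 93.04 CPM in WT libraries. The log2 fold changes against WT were -1.20 in DKO (adjusted p = 0.00274), -2.31 in GLO1KO and -1.59 in AKR1A1AKO larvae, and 1.11 in DKO against GLO1KO larvae (adjusted p = 0.000122 in edgeR's test). The log2 ratio of APOB to apobb.1 counts within a library, which does not depend on the scaling between libraries, was lower by 0.32 in DKO than in WT larvae. That difference did not pass after adjustment over the 10 ratio comparisons (exact two-sided permutation test, p = 0.0281, adjusted p = 0.0563), and the smallest adjusted p of this ratio was 0.0505, in AKR1A1AKO against WT larvae.

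Both measured apoC genes code for small exchangeable proteins. apoc2 (ENSDARG00000092155), the cofactor of lipoprotein lipase, had 108 to 177 CPM in DKO, 38.4 to 87.8 CPM in GLO1KO, 71.2 to 159 CPM in AKR1A1AKO and 102 to 272 CPM in WT libraries. It was called lower in GLO1KO than in WT larvae, at -1.37 on the log2 scale (standard error 0.235, adjusted p = 0.000146 in edgeR's test), and higher in DKO than in GLO1KO larvae at 1.103 (adjusted p = 0.000401). Against WT, apoc2 in DKO larvae had -0.27 (adjusted p = 0.262) and in AKR1A1AKO against WT larvae -0.67 (adjusted p = 0.0578), which was called without WT 6 (-0.78, adjusted p = 0.0231) or AKR1A1AKO 3 (-0.86, adjusted p = 0.029). In DKO against AKR1A1AKO larvae it had 0.40 (adjusted p = 0.0967), and 0.585 without AKR1A1AKO 3 (adjusted p = 0.0132), which was called.

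apoc1 (ENSDARG00000092170), known in mammals as an inhibitor of lipase action and of particle uptake, had 157, 190.2 and 239 CPM in DKO libraries as lowest, median and highest, and 72.2, 90.6 and 125 CPM in GLO1KO libraries. AKR1A1AKO libraries had 84.9, 98.1, 101, 159 and 162 CPM, and WT libraries had 132, 163 and 287 CPM. All DKO libraries lay above all GLO1KO libraries, and the DKO range fell within the WT range.

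The mean of apoc1 was 195 ± 34.3 CPM (SD, n = 6) in DKO and 194.5 ± 69.9 CPM (SD, n = 6) in WT larvae, -0.01 on the log2 scale (standard error 0.189, adjusted p = 0.972 in edgeR's test). This near-zero value changed sign under several settings. apoc1 was called lower than in WT in GLO1KO (-1.05, adjusted p = 0.000345) and AKR1A1AKO larvae (-0.68, adjusted p = 0.0379), and higher in DKO than in either single knockout, at 1.04 against GLO1KO (adjusted p = 5.8e-05) and 0.68 against AKR1A1AKO larvae (adjusted p = 0.00387). The call in AKR1A1AKO against WT larvae was lost without any 1 of 5 libraries (WT 1, WT 2 or AKR1A1AKO 2, 4 or 5), at -0.54 to -0.63 and an adjusted p of 0.0767 to 0.0926. The call in DKO against AKR1A1AKO larvae was lost without AKR1A1AKO 2, at 0.575, just under the fold threshold.

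Zebrafish have a pair of apoE genes. apoea (ENSDARG00000102004) had 72.9, 81.4 and 84.98 CPM in DKO libraries as lowest, median and highest, and 28.3, 32.3 and 44.5 CPM in GLO1KO libraries. AKR1A1AKO libraries had 33.6, 34.1, 43.7, 63.8 and 70.1 CPM. WT libraries had 36.1, 38.9 and 106 CPM, and again WT 1 (106 CPM) and WT 2 (71.5 CPM) stood above the other 4, which lay between 36.1 and 39.3 CPM. Every DKO library lay above every GLO1KO and AKR1A1AKO library and above all WT libraries but WT 1.

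apoea was 2.31-fold higher in DKO than in GLO1KO larvae (log2 fold change 1.21, standard error 0.0904, adjusted p = 6.93e-07 in edgeR's test) and 1.62-fold higher than in AKR1A1AKO larvae (0.70, standard error 0.162, adjusted p = 0.00296). Set against WT larvae, DKO larvae had 0.54 (standard error 0.232, adjusted p = 0.0561). That value was 0.84 without WT 1 (adjusted p = 0.000223), 0.63 without WT 2 (adjusted p = 0.0377) and 1.07 without both WT 1 and WT 2 (adjusted p = 3.53e-09). In GLO1KO against WT larvae apoea was called lower at -0.67 (adjusted p = 0.0292), but the call was lost without WT 1 (-0.37, adjusted p = 0.0741), WT 2 (-0.57, adjusted p = 0.0665) or GLO1KO 3, 5 or 6 (-0.62 to -0.64). Without both WT 1 and WT 2 the value was -0.13 (adjusted p = 0.299). In AKR1A1AKO against WT larvae it was -0.15 (adjusted p = 0.711), and 0.14 without WT 1.

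apoeb (ENSDARG00000040295), the other apoE gene, was ordered differently across genotypes. It had 296, 306 and 375 CPM in DKO libraries, 248, 277 and 335 CPM in GLO1KO libraries, and 182, 199.8 and 382 CPM in WT libraries (lowest, median and highest). AKR1A1AKO libraries had 158.8, 159, 170.2, 192 and 195 CPM. DKO and GLO1KO overlapped, and both lay above all AKR1A1AKO libraries and above the 4 WT libraries other than WT 1 and WT 2.

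The log2 fold change of apoeb in DKO against GLO1KO larvae was 0.14 (standard error 0.0698, adjusted p = 0.188), and in DKO against AKR1A1AKO larvae it was 0.84 (standard error 0.0725, adjusted p = 8.54e-07 in edgeR's test). Against WT larvae apoeb in DKO larvae had 0.38 (adjusted p = 0.0474), below the fold threshold, in GLO1KO against WT larvae 0.24 (adjusted p = 0.199) and in AKR1A1AKO against WT larvae -0.46 (adjusted p = 0.0555). Without WT 1 and WT 2 the value was 0.69 in DKO (adjusted p = 7.32e-07), past the fold threshold, and 0.56 in GLO1KO (adjusted p = 1.25e-05), still below it.

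**Figure D2:**
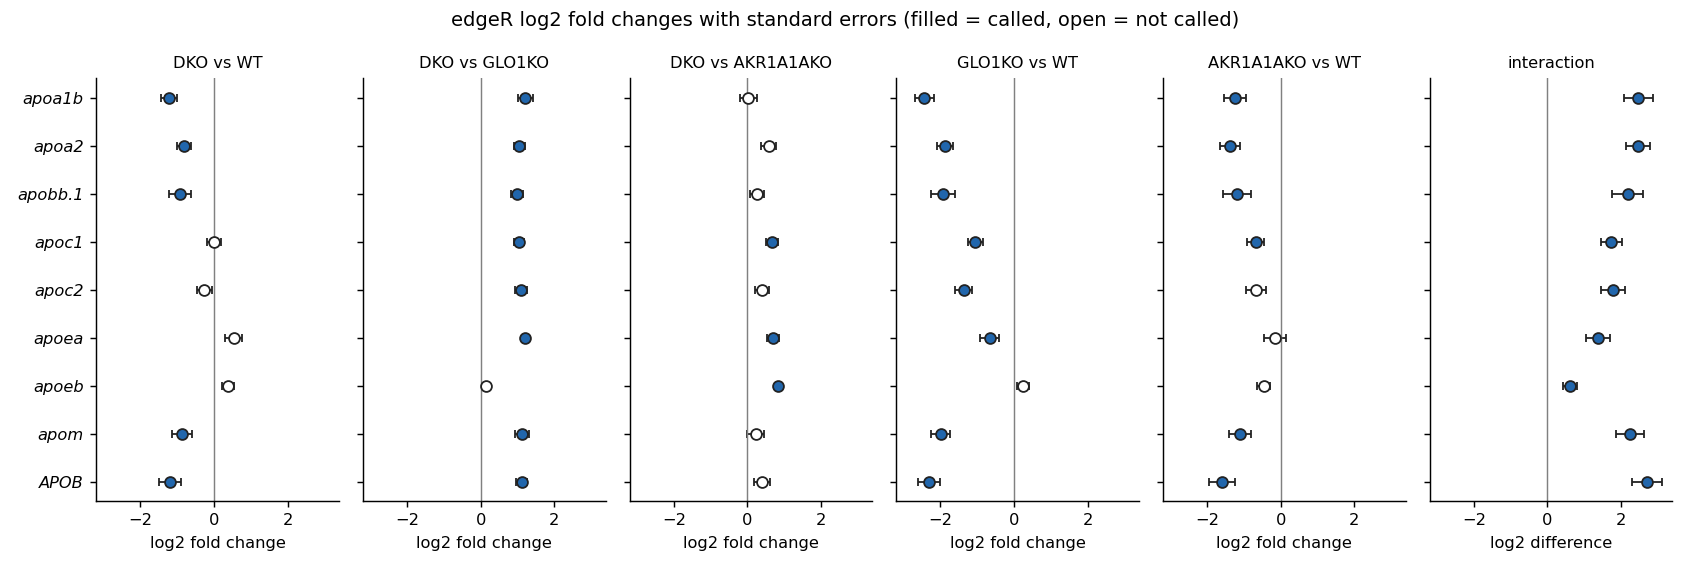
Log2 fold changes (first genotype over second) with standard errors from edgeR for the 8 genes and APOB in 5 comparisons, and the log2 interaction term. Filled points were called and open points were not, and apoeb is the gene that is open in DKO vs GLO1KO, at 0.14.

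The ratio of apoea to apoeb counts within a library set these differences against each other. It ran from 0.194 to 0.284 in DKO, 0.104 to 0.148 in GLO1KO, 0.211 to 0.360 in AKR1A1AKO and 0.188 to 0.276 in WT libraries. All GLO1KO libraries lay below all libraries of the other genotypes. The mean log2 ratio was higher by 1.08 in DKO than in GLO1KO larvae (exact two-sided permutation p = 0.00216, which is the lowest that 6 against 6 can give, adjusted p = 0.0108 over 10 comparisons), and in GLO1KO against WT larvae the difference was -0.84 with the same p and adjusted p. DKO and WT larvae differed by 0.24 (exact permutation p = 0.0974, adjusted p = 0.158), and AKR1A1AKO and WT larvae by 0.32 (exact permutation p = 0.11, adjusted p = 0.158).

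**Figure D3:**
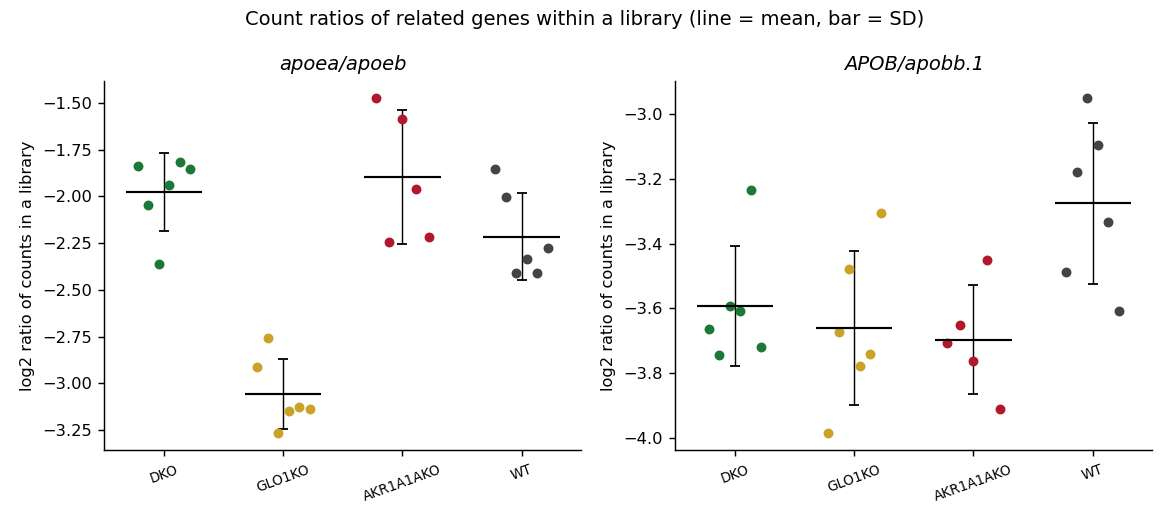
Log2 ratio of apoea to apoeb counts and of APOB to apobb.1 counts in every library, by genotype, with the mean as a line and the SD as a bar. The GLO1KO libraries lie apart in the apoea to apoeb ratio, with a mean of -3.06 against -1.98 in DKO and -2.22 in WT, and overlap the other genotypes in the APOB to apobb.1 ratio.

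The make-up of the apolipoprotein pool differed accordingly. The 8 genes together took 0.198 to 0.308% of all counts in DKO, 0.0900 to 0.167% in GLO1KO, 0.144 to 0.292% in AKR1A1AKO and 0.322 to 0.795% in WT libraries. apoeb made up 8.97 to 17.9% of the counts of the 8 genes in DKO, 17.1 to 27.7% in GLO1KO, 6.43 to 11.6% in AKR1A1AKO and 4.75 to 6.297% in WT libraries, so the GLO1KO and WT ranges did not meet. The share of apoa1b ran the other way, with 33.4 to 43.1% in DKO, 25.6 to 37.2% in GLO1KO, 43.02 to 51.1% in AKR1A1AKO and 48.7 to 55.1% in WT libraries. The share of apoa2 was 19.9 to 25.9% in DKO, 20.3 to 21.95% in GLO1KO, 17.4 to 20.1% in AKR1A1AKO and 21.6 to 24.1% in WT libraries. Every AKR1A1AKO library thus lay below every WT and every GLO1KO library in this share. A higher share than in WT was not particular to apoeb. The shares of apoea, apoc1 and apoc2 also lay higher in every knockout library than in every WT library. The highest WT shares were 1.435%, 5.15% and 4.16%, and the lowest knockout shares 2.14%, 5.32% and 4.27%. Shares of a fixed total move against each other, so a higher share need not mean a higher level. On the log2 scale apoeb had 0.24 in GLO1KO and -0.46 in AKR1A1AKO larvae against WT, neither called. The shares rest on counts, not on levels per length, and therefore say nothing of which transcript was the more abundant.

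An interaction term over all 23 libraries asked whether the difference that went with akr1a1a loss was the same with and without GLO1. The term is the difference between DKO and GLO1KO minus the difference between AKR1A1AKO and WT. It was above 0 and below an adjusted p of 0.05 in edgeR's test for 8 of 8 genes, where 31.8% of all genes passed (17.0% above 0, 14.9% below). For apoa1b the term was 2.47 on the log2 scale (standard error 0.387, adjusted p = 8.97e-05): akr1a1a loss went with a log2 fold change of -1.25 in larvae that had GLO1 and of 1.21 in larvae that lacked it. For apoa2 it was 2.45, for apom 2.24, for apobb.1 2.19, for apoc2 1.78, for apoc1 1.74 and for apoea 1.37. apoeb had the lowest value, 0.61 (standard error 0.194, adjusted p = 0.0189), which was 0.29 without WT 1 and WT 2 (adjusted p = 0.0511). The DKO and WT lines came from the same cross, and the sources used here do not say this of the sequenced single knockouts. The term sets DKO and WT against both single knockouts, so a difference in line origin could not be told apart from it. The same holds for each comparison of a single knockout with DKO or WT.

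The CPM ranges were also compared without a model. Between DKO and GLO1KO larvae the CPM ranges of 7 of the 8 genes did not overlap, where 7.16% of all genes did not overlap (4.56% higher in DKO, 2.61% lower). In GLO1KO against WT larvae 6 of 8 did not overlap and were lower (39.6% of all genes did not overlap, 20.1% lower and 19.4% higher). In DKO against WT larvae apoa1b alone was wholly lower (37.9% of all genes did not overlap, 18.4% lower and 19.5% higher). In AKR1A1AKO against WT larvae apoa1b and apoa2 were wholly lower (18.8% of all genes did not overlap, 8.87% lower and 9.96% higher), and in DKO against AKR1A1AKO larvae apoea and apoeb were wholly higher (24.0% of all genes did not overlap, 11.7% higher and 12.2% lower).

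Within 3 of the genotypes the same libraries tended to lie high. WT 1 had the highest and WT 2 the second highest WT level of all 8 genes, and AKR1A1AKO 1 and AKR1A1AKO 3 held the top 2 places of their genotype for all 8. GLO1KO 1 was the highest GLO1KO library for 8 genes and GLO1KO 6 the lowest for 6. DKO libraries were less uniform: DKO 5 was the highest for 5 genes and DKO 3 the lowest for 5, but apoeb was highest in DKO 3, at 375 CPM, and lowest in DKO 5, at 296 CPM. The hepatocyte sum was also highest in WT 1 and WT 2, at 2777 and 2247 CPM, and in AKR1A1AKO 1 and 3, at 881 and 899.9 CPM. The coefficient of variation over the 8 genes ran from 6.29% (apoea) to 32.99% (apom) in DKO, 10.9% (apoeb) to 33.7% (apoa1b) in GLO1KO, 9.91% (apoeb) to 45.2% (apoa1b) in AKR1A1AKO and 32.98% (apoeb) to 66.8% (apobb.1) in WT libraries.

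WT 1 and WT 2 were both left out as an alternative added after seeing these values. DKO against WT larvae then had 2 genes called higher (apoea and apoeb) and 1 lower (apoa1b, at -0.87, adjusted p = 0.000254 in edgeR's test). apoa2 had -0.46 (adjusted p = 0.00437), apom -0.41 (adjusted p = 0.0959) and apobb.1 -0.27 (adjusted p = 0.0561) in that setting. In AKR1A1AKO against WT larvae 2 of 8 were still called lower, apoa1b at -0.89 (adjusted p = 0.0259) and apoa2 at -1.03 (adjusted p = 0.00725). In GLO1KO against WT larvae 6 of 8 were called lower, from -0.68 for apoc1 to -2.08 for apoa1b.

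Deviations from the genotype means were compared across the 23 libraries as a description. The 21 pairs of genes without apoeb had Pearson correlations of 0.818 to 0.965 (median 0.905), and the 7 pairs with apoeb had 0.589 to 0.859 (median 0.692), the highest of them with apoea. The points share each library's RNA pool and its scaling. No values for pairs of other genes were set beside them. WT 1 and WT 2 lay high in their genotype for all 8 genes, as did AKR1A1AKO 1 and AKR1A1AKO 3. The same deviations followed those of the hepatocyte sum with r = 0.976 for apoa2, 0.952 for apom and 0.948 for apoa1b, and with r = 0.664 for apoeb. With the enterocyte sum r was 0.890 for apoc2, 0.881 for apoa1b and 0.605 for apoeb, the highest values and the lowest of the 8.

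**Figure D4:**
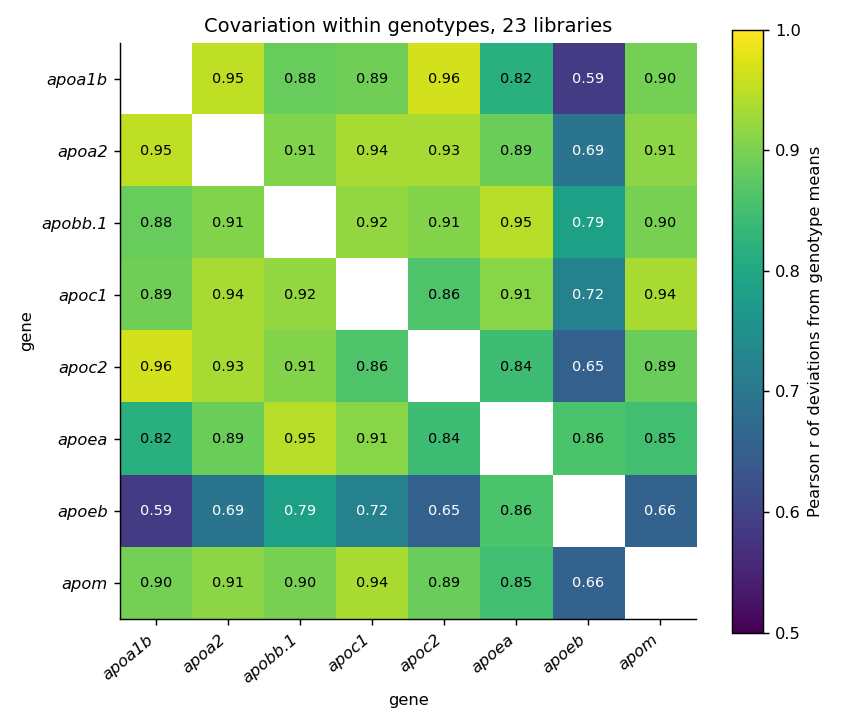
Pearson correlation of the deviations of log2 CPM from the genotype means for each pair of the 8 genes, over 23 libraries. The row and column of apoeb hold the low values, 0.589 to 0.859, and the other pairs lie between 0.818 and 0.965.

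The 7 genes other than apoeb were also set beside the hepatocyte sum. That sum is weighted by tfa, whose mean was 923 of 1660 CPM in WT and 274 of 735 CPM in DKO larvae. In GLO1KO larvae it was 148 of 397 CPM and in AKR1A1AKO larvae 267.5 of 612 CPM. Ratios to single liver genes were not taken. Their summed CPM was 2.76 to 3.45 times the hepatocyte sum in DKO, 2.46 to 2.76 times in GLO1KO, 2.69 to 3.71 times in AKR1A1AKO and 2.39 to 2.86 times in WT libraries. apoeb was 0.272 to 0.696 times that sum in DKO, 0.5475 to 0.941 times in GLO1KO, 0.213 to 0.4125 times in AKR1A1AKO and 0.122 to 0.192 times in WT libraries. The ranges of the 7-gene ratio overlapped between genotypes, or met at 2.76 in the case of DKO and GLO1KO. The apoeb ratio of every knockout library lay above every WT library. This was not particular to apoeb. Over the same sum, apoea, apoc1 and apoc2 also lay higher in every knockout library than in every WT library. apoa1b and apoa2 weigh most in the 7-gene sum, with means of 2346 and 1025 of 4301 CPM in WT.

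**Figure D5:**
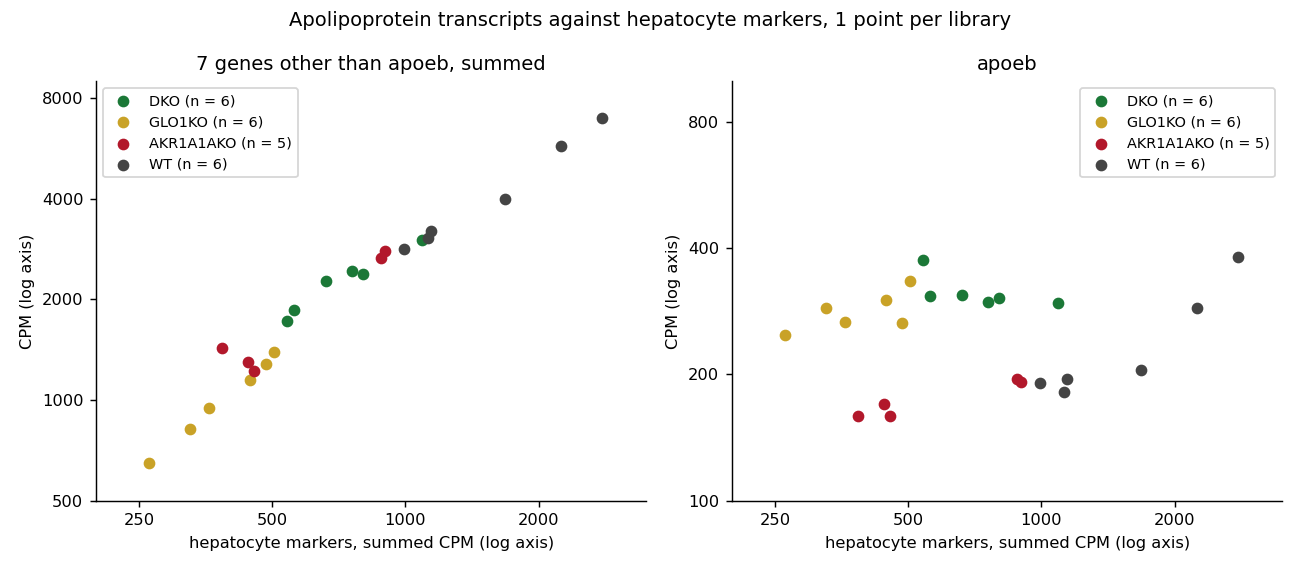
Summed CPM of the 7 genes other than apoeb (left) and CPM of apoeb (right) against the summed CPM of 14 hepatocyte markers, all on log axes, 1 point per library. The 7 genes follow 1 band from GLO1KO to WT, whereas apoeb lies at 248 to 375 CPM in DKO and GLO1KO libraries at hepatocyte sums below nearly all of WT.

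The genes most like each member over the same deviations, among 16526 candidates, were found without regard to function. For apoa1b these were GC (r = 0.985) and gpx4a (0.959), for apoa2 serpina1 (0.989) and msmbl (0.964), for apoc1 fga (0.954) and FGB (0.935), and for apom VTN (ENSDARG00000053831, 0.973) and ITIH2 (0.970). apoc2 was nearest to sec14l7 (0.965) and MOGAT2 (0.963), and apobb.1 to the unnamed gene ENSDARG00000117188 (0.964) and CNDP2 (0.946). The nearest candidates to apoea were the unnamed ENSDARG00000117188 (0.931) and ENSDARG00000111667 (0.930), and those to apoeb were prdm1b (0.945) and krt1-19d (0.925). GC, serpina1, fga, FGB, VTN and ITIH2 are also on the hepatocyte list, and MOGAT2 is on the enterocyte and assembly lists.

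In the gene order of the GRCz12tu assembly, apoeb, apoc1, apoa2 and apoc2 neighbour each other, within 10 genes, together with apoc4 and 3 apoA-IV genes, while apoea neighbours apoa4a. apoa1b, apobb.1 and apom have no other apolipoprotein gene within 10 genes. Among these neighbours, in DKO against GLO1KO larvae apoc1 had a log2 fold change of 1.04 and apoeb of 0.14.

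Of 13 further apolipoprotein genes tested, 6 were called lower in GLO1KO and 2 lower in AKR1A1AKO than in WT larvae, and 4 were called higher in DKO than in GLO1KO larvae, beside 17.7%, 9.28% and 2.98% of all genes. The apoA-IV gene apoa4b.1, whose protein is made by the intestine and coats newly formed particles, averaged 164 CPM in DKO, 70.4 CPM in GLO1KO, 106 CPM in AKR1A1AKO and 237 CPM in WT larvae. Its log2 fold change was 1.21 in DKO against GLO1KO, -1.75 in GLO1KO against WT and -0.54 in DKO against WT larvae, the last not called. apoa4b.2 had 1.32 in DKO against GLO1KO and -1.17 in GLO1KO against WT larvae, and apoa4a had 1.66 and -1.57 in the same comparisons. The level of apoa4a was low, averaging 1.98 CPM in DKO, 0.62 CPM in GLO1KO and 1.84 CPM in WT larvae.

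Against WT, 2 of the 13 were called lower in DKO larvae, a share near the 18.0% of all genes. These were apobb.2 at -1.15 (standard error 0.265, adjusted p = 0.00168) and APOD (ENSDARG00000060350) at -1.01 (standard error 0.379, adjusted p = 0.0311 in edgeR's test). The level of apobb.2 was low, averaging 0.82 CPM in DKO and 1.81 CPM in WT larvae. The call of APOD was lost with limma (-0.75, adjusted p = 0.0768) and in 6 of 12 fits without 1 library (WT 1 or 2 or DKO 1, 2, 3 or 4), among them -0.51 without WT 1 (adjusted p = 0.111). Without both WT 1 and WT 2 it was -0.12 (adjusted p = 0.569). Of the others, in DKO against WT larvae CLU (clusterin) had -0.10, APOO and apool, which encode mitochondrial proteins, 0.23 and -0.35, apol1 -0.03 and apoda.1 0.10, and all 5 stayed below the fold threshold in each of the 5 comparisons. apof ran the other way, at 0.38 in DKO and 0.45 in GLO1KO against WT larvae, both below the fold threshold. The interaction term passed above 0 for 6 of the 13 and below 0 for 1, beside 17.0% and 14.9% of all genes. The 1 below 0 was apof, at -0.30 (adjusted p = 0.0179 in edgeR's test).

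Genes of the enzymes and partners that build lipoproteins were read next. Of 22 assembly genes, 9 were called lower in DKO, 11 in GLO1KO and 8 in AKR1A1AKO than in WT larvae, beside 18.0%, 17.7% and 9.28% of all genes. Against GLO1KO larvae 5 were called higher in DKO, beside 2.98% of all genes. DGAT2, which makes triglyceride, averaged 1.71 ± 0.605 CPM (SD, n = 6) in DKO and 13.6 ± 11.6 CPM (SD, n = 6) in WT larvae, which is -3.002 on the log2 scale (standard error 0.482, adjusted p = 8.2e-05 in edgeR's test). It was 1.23 higher on the log2 scale in DKO than in GLO1KO larvae. acsl3a, a fatty acid activating enzyme, had -2.08 in DKO against WT larvae, and SEC24D, a coat protein of vesicles that leave the endoplasmic reticulum, had -1.18.

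Of 24 lipase and particle remodelling genes, 9 were called lower in DKO, 9 in GLO1KO and 4 in AKR1A1AKO than in WT larvae, beside 18.0%, 17.7% and 9.28% of all genes. LCAT, which esterifies cholesterol on high-density particles with apoA-I as its cofactor, averaged 0.930 ± 0.362 CPM (SD, n = 6) in DKO, 0.988 CPM in GLO1KO, 1.68 CPM in AKR1A1AKO and 5.37 ± 2.74 CPM (SD, n = 6) in WT larvae. Its log2 fold change was -2.54 in DKO against WT larvae (adjusted p = 1.45e-05 in edgeR's test) and -0.10 in DKO against GLO1KO larvae (adjusted p = 0.832). LPL (ENSDARG00000098720), the lipase that apoC-II activates, had -1.43 in DKO against WT larvae (adjusted p = 1.14e-05) and -0.53 in DKO against GLO1KO larvae (adjusted p = 0.0796), and PCSK5, a protease, had -1.05 in DKO against WT larvae.

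Of 27 lipoprotein receptor genes, 7 were called lower in GLO1KO and 6 in AKR1A1AKO than in WT larvae, beside 17.7% and 9.28% of all genes. Against AKR1A1AKO larvae 4 were called higher and 3 lower in DKO, beside 3.77% and 8.11% of all genes. Against GLO1KO larvae 1 was called higher in DKO, beside 2.98% of all genes. In DKO against WT larvae 2 of the 27 were called higher and 4 lower, which is near the 7.32% and 18.0% of all genes. MYLIP (ENSDARG00000008859), which marks LDL receptors for breakdown, had a log2 fold change of 0.74 (adjusted p = 1.76e-06 in edgeR's test), or 0.56 and below the fold threshold with scaling by library size alone, and stab2, a scavenger receptor of endothelium, 0.79, while DAB1, an adaptor of LDL family receptors, had -0.90 and LRP4 had -0.92. Of 25 sterol efflux and transport genes tested in DKO against GLO1KO larvae, 6 were called higher, beside 2.98% of all genes. Of 26 tested in DKO against WT larvae, 8 were called lower and 1 higher, beside 18.0% and 7.32% of all genes. CYP7A1, the rate-limiting enzyme of bile acid synthesis, had -2.05 (adjusted p = 3.68e-05) and was higher by 0.76 in DKO than in GLO1KO larvae. ABCG4 (ENSDARG00000061047), a sterol transporter, had -1.70, OSBP, an oxysterol binding protein, -0.88, and CYP27A1 (ENSDARG00000069186), a bile acid enzyme, 0.63 (adjusted p = 0.0196 in edgeR's test). The call of CYP27A1 was lost when libraries were scaled by their totals only (0.46, adjusted p = 0.0784), without WT 1 (0.57, below the fold threshold) and without DKO 6 (0.50, adjusted p = 0.0555). Other rows also carry the names MYLIP, ABCG4 and CYP27A1, and their values are not given here.

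Of 26 sterol synthesis genes, 5 were called lower in DKO and 4 in GLO1KO than in WT larvae, shares near the 18.0% and 17.7% of all genes. SCAP and SREBF1, which control sterol and fatty acid synthesis genes, had log2 fold changes of -0.82 and -0.75 in DKO against WT larvae, and SC5D, an enzyme of the pathway, had -1.09. Of 33 transcription regulators of liver and lipid genes, 11 were called lower in DKO, 14 in GLO1KO and 9 in AKR1A1AKO than in WT larvae, beside 18.0%, 17.7% and 9.28% of all genes. In each single knockout 1 was called higher, beside 6.85% of all genes in GLO1KO and 2.26% in AKR1A1AKO larvae. PPARGC1A had -0.999 in DKO against WT larvae (standard error 0.0645, adjusted p = 1.49e-08), RXRB had -0.64, and RXRA (ENSDARG00000035127) had -2.28 (adjusted p = 4.58e-06 in edgeR's test), at 0.361 CPM in DKO against 1.76 CPM in WT larvae. In DKO against GLO1KO larvae 2 of the 26 sterol synthesis genes were called lower, beside 1.26% of all genes, and 21 lay below 0. In the same comparison 3 of the 33 regulators were called higher, beside 2.98% of all genes. Of the genes named above, SCAP had -0.13, SREBF1 -0.13, RXRB -0.11 and PPARGC1A -0.41 in that comparison, each short of the fold threshold. The values of SC5D and RXRA in DKO against GLO1KO larvae are not given here.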

How the data were processed

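RNA was sequenced from 23 clutches of 20 larvae each with a strand-specific poly(A) library. Per the labels and methods, SOAPnuke was used by the authors for read filtering, HISAT2 for alignment (GRCz11) and featureCounts (version 2.0.3) for gene counts, and the strand setting is not given in the sources used here. The deposited values are unnormalized expected counts: 94 of 22856 genes (0.411%) held values that were not whole, which were rounded, and none of the 8 genes was among them. The design had assumed whole counts. Symbols came from a name table (20170 genes, 88.2%), and GRCz12tu served only to find neighbouring genes.

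Each pair of genotypes was fitted with edgeR (version 4.0.16, R version 4.3.3) after filterByExpr and TMM scaling, with the quasi-likelihood test and Benjamini-Hochberg adjustment over all genes. A gene was called at an adjusted p below 0.05 if it also passed a fold of 1.5, and for the interaction term over 23 libraries the adjusted p alone. Replicates are separate clutches, so p-values measure the spread between clutches. Count ratios within a library were compared by exact permutation of libraries. The code was tested on simulated data. The members, gene lists and markers were chosen with earlier results of these data known. Named genes are the 8 members and glo1. From each list up to 3 called genes in each direction with the lowest p in DKO against WT are named. So are the 3 most abundant markers of each cell type and the 2 non-member genes most like each member. Further list genes were named after their values were seen. A gene that this rule names is not reported here. Alternatives were DESeq2 (version 1.42.0), limma (version 3.58.1), other scalings and filters, 1 fit over all libraries, a replicate block and leaving out libraries.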

Additional observations from a re-analysis of the deposited data

Results flagged for a closer look

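A library stood far from the others of its genotype in 3 of the 44 groups of values examined, and chance puts about 1 in 20 groups past this limit. The highest WT level of apobb.1, 1044 CPM in WT 1, lay far above the next WT library at 549.9 CPM. The highest DKO level of apoeb, 375 CPM in DKO 3, stood away from the other 5 DKO libraries. The highest DKO ratio of APOB to apobb.1 counts, 0.106 in DKO 5, stood away from the other DKO ratios.

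The difference that went with akr1a1a loss was not the same in larvae that lacked GLO1 and larvae that had it. This held by edgeR's interaction term for all 8 genes and APOB, where 31.8% of all genes passed. The differences on the log2 scale were 2.47 for apoa1b, 2.45 for apoa2, 2.19 for apobb.1, 2.71 for APOB, 1.74 for apoc1, 1.78 for apoc2, 1.37 for apoea, 0.61 for apoeb and 2.24 for apom. Without WT 1 and WT 2 the value for apoeb was 0.29 (adjusted p = 0.0511). As stated above, a difference in line origin could not be told apart from the interaction term.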

How the results depend on the processing

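The count of the 8 genes called in either direction stayed within 1.5 times its value under all but 2 of the settings other than leaving out 1 library: in DKO against AKR1A1AKO it was 1 with scaling by library size alone, where 3 were called, and in AKR1A1AKO against WT it was 2 without both WT 1 and WT 2, where 5 were called. By direction, DKO against WT also changed without WT 1 and WT 2, with 2 called higher and 1 lower, where 0 were called higher and 4 lower. With library size alone apoc1 (0.56) and apoea (0.58) came just under the fold threshold in DKO against AKR1A1AKO, and with limma apoea was called higher in DKO against WT (0.67, adjusted p = 0.0156) and not called in GLO1KO against WT (-0.55, adjusted p = 0.0516). Leaving out 1 library at a time gave 4 to 5 calls in DKO against WT, 7 in DKO against GLO1KO, 2 to 5 in DKO against AKR1A1AKO (2 without AKR1A1AKO 2, 5 without AKR1A1AKO 3), 6 to 7 in GLO1KO against WT, 3 to 6 in AKR1A1AKO against WT (3 without AKR1A1AKO 2, 4 or 5) and 8 for the interaction. Same-numbered libraries of different genotypes had correlations of deviations of -0.127 to 0.21. Different-numbered libraries were not compared, so whether the numbers mark paired samples was not tested. With the replicate block the counts were 5, 7, 4, 6, 6 and 8 in the order of the comparisons above. Under the block, a sign-flip of same-numbered pairs, the log2 difference of the apoea to apoeb ratio was 1.08 in DKO against GLO1KO and -0.84 in GLO1KO against WT (exact adjusted p = 0.125 for both), but 6 pairs cannot give a p below 0.03125, the value of both, so this setting could not pass after the adjustment.

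Signs turned for values near 0, and the cause was not tested. For apoa1b in DKO against AKR1A1AKO the log2 value was -0.087 with library size alone and -0.11 to 0.23 leaving out 1 library. For apoc1 in DKO against WT it was 0.045 with limma, 0.002 in 1 fit over all libraries, 0.046 with the replicate block, 0.36 without WT 1 and WT 2, and -0.10 to 0.14 leaving out 1 library. Without WT 1 and WT 2, apoc2 in DKO against WT was 0.10 and apoea in AKR1A1AKO against WT 0.38, the second ranging from -0.31 to 0.14 with 1 library left out. Leaving out 1 library, the apoea to apoeb difference was -0.17 to 0.027 in DKO against AKR1A1AKO, and that of APOB to apobb.1 was -0.0049 to 0.14 in DKO against GLO1KO, -0.39 to -0.25 in DKO against WT, -0.45 to -0.32 in GLO1KO against WT and -0.49 to -0.35 in AKR1A1AKO against WT, with a lowest exact adjusted p of 0.0346 in each of the comparisons with WT. A planned ratio of apoa1a to apoa1b was not run, and that of apoba to apobb.1 was run with the row named APOB.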
